A study of Mus musculus with 3 samples.

Results

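The contacts of a window named after Pou5f1 were described from 3 Capture Hi-C (CHi-C) libraries. They were represented by every di-tag, the sequenced product of joining 2 restriction fragments, that had at least 1 end in the 30 kb window chr17:35630000-35660000 of the mouse mm9 genome. After removal of duplicates, 625, 371 and 325 such di-tags were found in Samples 3, 4 and 5, which is 1321 of 26794867 di-tags in all. The libraries held 9376907, 8596799 and 8821161 di-tags in the same order.

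All 3 libraries carry the cell type label embryonic stem cells and the strain label C57BL/6, and they form a single group with no control. The chromatin was fixed in 2% formaldehyde, cut with the restriction enzyme HindIII, filled in with biotin and ligated, before library fragments of interest were captured. For Sample 3 the source was entered as foetal liver, which the cell type label of that same library contradicts, so values are given library by library, and means that it moved are also given without it. The study's text names all 3 as embryonic stem cells. What part the conflict had in any result was not tested. Nothing in the labels states that the libraries came from separate cultures, and the SDs below therefore measure a spread that may be technical.

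Pou5f1 encodes Oct4, a POU-family transcription factor that is required for pluripotency and is highly expressed in embryonic stem cells. The gene lies within the major histocompatibility complex, beside class I genes. In the GRCm38.p6 gene table its protein-coding neighbours on the lower side are, from the nearest outwards, H2-Q10, H2-Q7, H2-Q6 and H2-Q4, and on the higher side Tcf19, Cchcr1, Psors1c2 and Cdsn. H2-Q genes encode non-classical class I antigens, and Cdsn encodes corneodesmosin, an adhesion protein of cornified epidermis. In Capture Hi-C, a contact is read from fragments that were crosslinked close to each other and then joined, so that a promoter's partners are given by the other end of its di-tags.

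The promoter is shown because it is the element after which the window was named. The 250 bases before the start of Pou5f1, from RefSeq on GRCm38.p6, lie on the plus strand at chr17:35505782-35506031. These coordinates are on another build than the di-tags, and the place of the gene inside the mm9 window was not checked. Capitals mark a GC box (GGGCGG) and a nuclear receptor half-site (AGGTCA).
Pou5f1 promoter: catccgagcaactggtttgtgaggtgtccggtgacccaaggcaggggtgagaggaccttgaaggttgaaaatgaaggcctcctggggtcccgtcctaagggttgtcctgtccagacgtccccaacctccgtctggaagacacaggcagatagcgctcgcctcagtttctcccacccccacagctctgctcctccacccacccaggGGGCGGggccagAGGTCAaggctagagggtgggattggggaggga
GGGCGG began 45 bases and AGGTCA 33 bases before the gene start, both on the strand of the gene and without overlap. Searched on both strands, GGGCGG was held by 32.7% and AGGTCA by 14% of the 32851 promoters of the same length in that table. The HindIII site AAGCTT was not found in these 250 bases. It was held by 6.22% of all promoters, and no promoter entry of Pou5f1, Tcf19 or Cchcr1 had it. A match of letters is a description and not evidence of binding.

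The ends inside the window were not spread evenly but fell in 5 piles. Together the libraries placed 1357 ends there, and each pile changed from plus-strand ends to minus-strand ends at a single point. The changes lay between bases 35633969 and 35633982, 35641081 and 35641089, 35643110 and 35643143, 35652085 and 35652098, and 35659394 and 35659415. No end of the 1357 lay on the wrong side of a change. Each pile therefore had the pattern of reads that point towards a restriction site from both sides, although the mm9 sequence was not used here to place the sites. The piles held 97, 363, 151, 637 and 109 ends from the lowest to the highest coordinate.

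**Figure D1:**
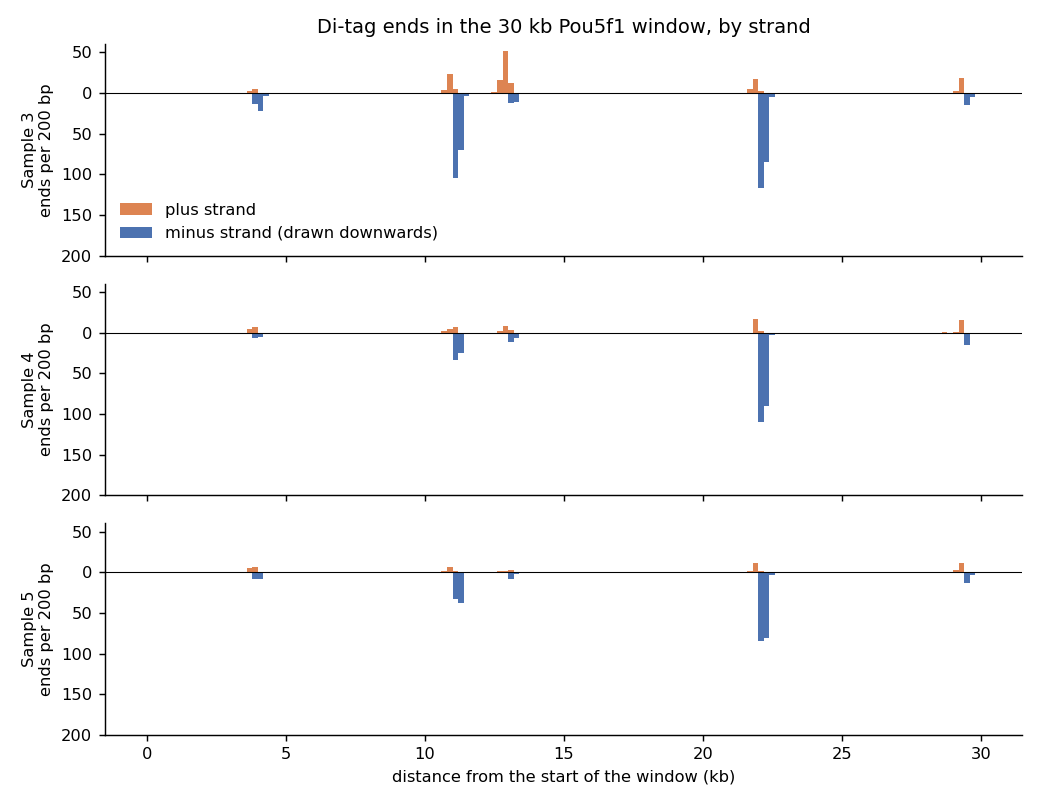
Number of di-tag ends per 200 bp along the 30 kb window in Samples 3, 4 and 5, with plus-strand ends drawn upwards and minus-strand ends downwards, against the distance from the window start in kb. In each library the ends sat in 5 piles with plus-strand ends on the left and minus-strand ends on the right, and the piles near 11 kb and 22 kb were mostly minus-strand.

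The 5 strand changes cut the window into intervals, and 2 of these carried most of its ends. The 2.04 kb interval from 35641085 to 35643125 held 260, 72 and 78 ends in Samples 3, 4 and 5, or 40.9%, 18.8% and 23.1% of the window's ends. The 7.31 kb interval from 35652091 to 35659403 held 229, 221 and 183 ends, or 36.1%, 57.6% and 54.1%. Their combined share hardly varied, at 77.0%, 76.3% and 77.2%. The list of captured fragments was not analysed here. Which interval holds the Pou5f1 promoter was not checked either. The di-tags of the window are therefore not those of that promoter alone.

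The balance between these intervals differed between the libraries. The 2.04 kb interval had 27.7 ends per 1000000 di-tags in Sample 3, against 8.38 in Sample 4 and 8.84 in Sample 5. The 7.31 kb interval had 24.4, 25.7 and 20.7 in the same order, so the libraries were far closer to each other there. The ratio of the shorter to the longer interval was 1.14 in Sample 3, 0.326 in Sample 4 and 0.426 in Sample 5. Sample 3 differed from Sample 4 with an odds ratio of 3.48 (Fisher's exact test, two-sided, adjusted p = 7.37e-15 over 3 pairs) and from Sample 5 with an odds ratio of 2.66 (exact, adjusted p = 1.41e-09). Samples 4 and 5 did not pass the test (odds ratio 0.764, exact, adjusted p = 0.18). The intervals were drawn from these same ends and picked because they held most of them, so the test was chosen after seeing the data. It counted each end as independent and compared these libraries, not conditions. How often such ratios differ between the libraries elsewhere on chromosome 17 was not tested.

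The ends were also uneven within the intervals. In the 7.31 kb interval 90.4%, 91.9% and 92.3% of ends lay at the lower-coordinate edge, with minus-strand ends, so the upper edge had 22, 18 and 14 ends. In the 2.04 kb interval the lower edge held 68.8%, 81.9% and 92.3% of ends. Its upper edge had 81 ends in Sample 3, against 13 in Sample 4 and 6 in Sample 5. Sample 3 was thus set apart by both edges of the shorter interval, with 179 ends at the lower edge against 59 and 72.

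Most partners of the window lay outside its neighbourhood in every library. Di-tags joining the window to another chromosome, in trans, numbered 267, 230 and 231 in Samples 3, 4 and 5. Their share was 42.7% (exact 95% interval 38.8 to 46.7), 62.0% (56.8 to 67.0) and 71.1% (65.8 to 75.9), with a mean of 58.6% ± 14.5 (SD, n = 3) and of 66.5% without Sample 3. The intervals here and below cover counting error only, since they take the di-tags of a library as independent draws. The di-tags also carried no molecular identifiers. Sample 3 was the lowest, and its interval did not overlap the others. The trans share of all di-tags rose in the same order of libraries, at 52.0%, 67.4% and 71.6%. The study's text takes a high ratio of trans to cis as a sign of a poor library, because spurious joining tends to link different chromosomes. How many of the window's trans di-tags were spurious was not tested.

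Cis partners within the span from 34600000 to 36700000 were counted in 121, 87 and 52 di-tags. Their share was 19.4%, 23.5% and 16.0%, with a mean of 19.6% ± 3.73 (SD, n = 3). Cis partners farther away on chromosome 17 numbered 227, 41 and 29, or 36.3% (32.5 to 40.2), 11.1% (8.05 to 14.7) and 8.92% (6.06 to 12.6). Sample 3 was again apart, with more distant than near cis partners, whereas Samples 4 and 5 had more near ones. The same split was seen over all of chromosome 17, where 58.5%, 27.0% and 27.3% of cis di-tags joined ends over 1 Mb apart. At the window, partners beyond the span made up 63.4%, 29.1% and 30.9% of cis di-tags, a similar but not equal measure. Both ends lay inside the window in only 10, 13 and 13 di-tags. The trans share did not separate the main intervals, at 46.9%, 65.3% and 74.4% of ends in the 2.04 kb interval against 42.4%, 63.8% and 75.4% in the 7.31 kb interval (Fisher's exact test, adjusted p = 0.888 in each library). It was lower in the 2 other intervals with more than 21 ends per library. These had 25.4%, 50.0% and 48.0% (from 35633975) and 38.3%, 45.9% and 44.0% (from 35643126), on 24 to 71 ends each. The intervals at the lower and upper edge of the window had 42.9%, 50.0% and 63.6%, and 42.9%, 38.9% and 31.25%, on 7 to 21 ends each. In Sample 3 these edge shares were thus not below the 42.4% of the 7.31 kb interval. Differences from the main intervals were not tested.

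These shares were set beside those of 54 other 30 kb windows of chromosome 17 whose di-tag count was within 20% of that of the Pou5f1 window in every library. The trans share of the window was below the median of these windows in Sample 3 (42.7% against 45.4%) and in Sample 4 (62.0% against 65.7%), and close to it in Sample 5 (71.1% against 70.5%). It lay inside their range in each library, which ran from 36.4% to 61.6%, from 52.4% to 76.4% and from 60.8% to 78.5%. Distant cis partners were above the median throughout. Their share was above that of 49, 48 and 39 of the 54 windows, with medians of 29.7%, 8.16% and 7.19%. The near cis share was 19.4% against a median of 20.7%, 23.5% against 20.5% and 16.0% against 16.0%. The windows nearest to it in all 4 shares were chr17:50330000-50359999, chr17:50030000-50059999 and chr17:32480000-32509999, whose summed differences averaged 5.84, 6.17 and 6.70 percentage points. These comparisons are descriptions and carry no test.

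**Figure D2:**
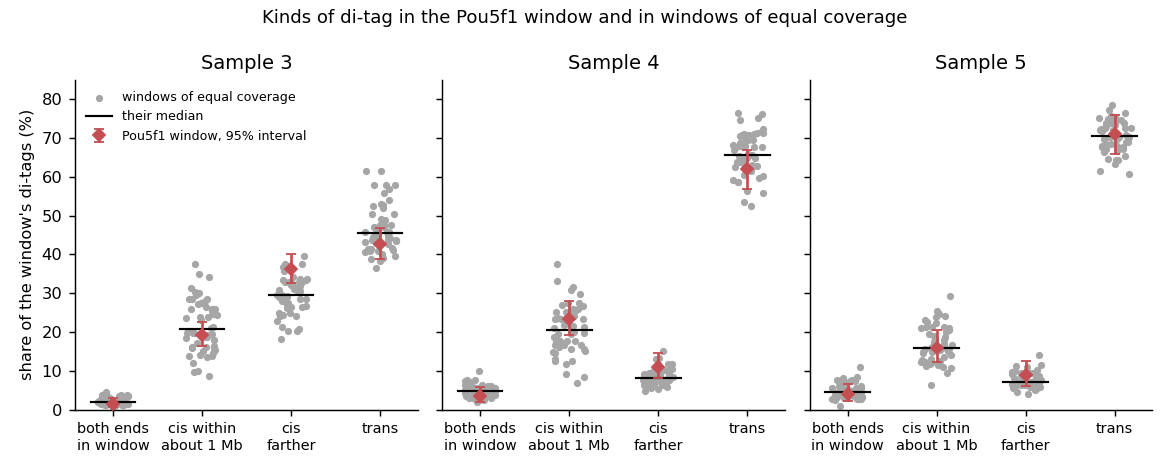
Share of di-tags, in percent, with both ends in the window, with a cis partner within about 1 Mb, with a farther cis partner or in trans, in Samples 3, 4 and 5. Diamonds with bars show the Pou5f1 window with its exact 95% interval, grey points the 54 windows of equal coverage and black lines their median. The window lies within the range of the points in each class, and above their median for farther cis partners.

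By count, the fullest near cis bin in each library was 1 of the 2 next to the window on its higher-coordinate side. Of 207 bins of 10 kb, 72, 37 and 23 held at least 1 partner in Samples 3, 4 and 5, of which 49, 19 and 15 held a single di-tag. The bin from 35660000 to 35669999 held 9, 17 and 10 di-tags, against 14.4, 12.9 and 8.32 expected by coverage and distance, as described below. The next bin, from 35670000, held 3, 10 and 12 di-tags against 6.17, 5.52 and 4.52. On the other side, the adjacent bin from 35620000 held 2, 6 and 3 against 1.22, 1.51 and 1.31. That lower bin was thus above its expectation in each library, on few di-tags, while both higher bins were below theirs in Sample 3. In all, 92 bins had a partner in some library, 30 in at least 2 and 10 in all 3. Of those 10, 7 began at most 50 kb from the window, and the others began 120, 150 and 450 kb above it.

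No partner bin passed the test that allowed for coverage and distance. The expected number was the product of the coverage of both regions and a distance factor fitted over chromosome 17, and an upper-tail negative binomial test was adjusted over the whole chromosome by the Benjamini-Hochberg method. It called 0 bins in each library, with 6, 5 and 4 of the 23, 18 and 8 bins that held at least 2 di-tags at an unadjusted p under 0.05, and a Poisson test also called 0. These counts depend on the minimum of 2 di-tags, which alone gives a low p where little is expected: over all such windows and bins of chromosome 17, 20.6%, 25.0% and 25.8% had a p that low, against 26.1%, 27.8% and 50% here. Of all chromosome 17 windows and bins with at least 2 di-tags, the test called 0%, 0.0402% and 0.0572%. The count needed to pass alone depended on the bin. It was 6 di-tags in each library where 0.1 was expected, 14, 16 and 15 where 1 was expected, and 37, 47 and 46 where 5 were expected. Smaller excesses in such bins were not detectable at this depth.

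The bins more than 100 kb away were chosen by their lowest count over the libraries, with ties broken by their sum. The bin from 35780000 held 1, 2 and 1 di-tags, against 5.04, 2.99 and 2.33 expected. The bins from 35810000 and from 36110000 held 1 di-tag in each library, with 1.57, 0.935 and 0.614 expected in the former and 2.09, 0.549 and 0.353 in the latter. None of these 3 exceeded its expectation in all libraries. The bin from 36000000, 340 kb away, held 0, 3 and 2 di-tags against 1.27, 0.379 and 0.241 expected (exact upper-tail p under the fitted dispersion 0.0121 and 0.03 unadjusted in Samples 4 and 5, adjusted p = 1). The bin from 36390000, 730 kb away, held 5 di-tags in Sample 3 against 1.38 expected (exact upper-tail p under the fitted dispersion 0.0276 unadjusted, adjusted p = 1) and 0 in the other libraries.

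**Figure D3:**
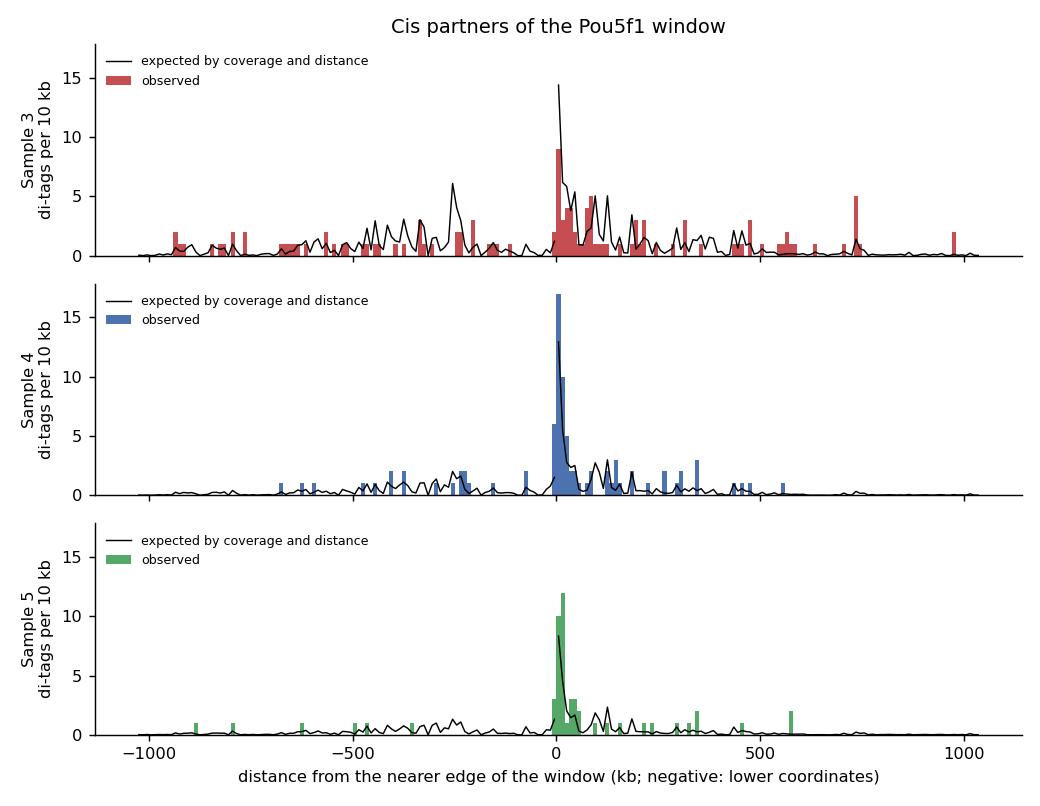
Di-tags per 10 kb partner bin in Samples 3, 4 and 5 (bars), with the number expected by coverage and distance (line), against the distance in kb from the nearer window edge, negative towards lower coordinates. The highest bars, 9 in Sample 3, 17 in Sample 4 and 12 in Sample 5, lie just above the window, and the lower side holds 46, 25 and 9 di-tags against 75, 62 and 43 on the higher side.

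Partners were fewer on the lower side, towards the H2-Q genes in the gene order, than on the higher side. Within 1030 kb on each side, 46 against 75 di-tags were counted in Sample 3, 25 against 62 in Sample 4 and 9 against 43 in Sample 5. The lower side thus had 38.0% (29.3 to 47.3), 28.7% (19.5 to 39.4) and 17.3% (8.23 to 30.3) of them, with a mean of 28.0% ± 10.4 (SD, n = 3). The share was below 50% in 3 of 3 libraries, for which an exact two-sided sign-flip permutation test gave p = 0.25, the smallest that 3 libraries allow. The median over the windows of equal coverage was 50.5%, 50.0% and 50.6%, and 8, 4 and 0 of the 54 had a lower share.

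Over the whole span, the lower side held the larger part of all di-tag ends in the bins, 59.0%, 62.6% and 61.4%, although not next to the window. Coverage and distance together gave an expected lower share of 44.1%, 40.3% and 39.8%, above the observed share in each library. This expectation lay inside the interval of the observed share in Sample 3, just above it in Sample 4 (upper limit 39.4) and above it in Sample 5 (30.3). Observed over expected was 0.597, 0.681 and 0.362 on the lower side, which was undercut by 2, 9 and 0 of the windows of equal coverage. It was 0.767, 1.14 and 1.14 on the higher side, which was undercut by 5, 31 and 35 of them. In Sample 3 the higher side was thus also low, and its lower-over-higher ratio of 0.779 was undercut by 11 of the 54.

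The imbalance was made up differently by distance. Within 50 kb, the lower side held 2, 6 and 3 di-tags against 22, 36 and 29 on the higher side, but its bins had few ends of any kind, 87, 102 and 97 against 1830, 1138 and 1044. The expected numbers there were 2.01, 2.80 and 2.13 on the lower side and 35.6, 26.1 and 18.0 on the higher side. The higher side thus held fewer than expected in Sample 3 (22, Poisson 95% interval 13.8 to 33.3) and more in Sample 5 (29, 19.4 to 41.6). Poisson intervals leave out the fitted dispersion of the negative binomial test, which was 0.209, 0.352 and 0.329. No band was tested against that dispersion, so departures by band are descriptions. From 50 to 100 kb the lower side held 0, 2 and 0 di-tags against 1.59, 1.33 and 1.03 expected, and the higher side 12, 4 and 3 against 11.2, 5.32 and 3.58. From 100 to 250 kb the lower side held 11, 6 and 0 against 13.7, 6.79 and 4.38, and the higher side 13, 10 and 4 against 20.8, 11.9 and 8.22. In Sample 5 the lower side was thus empty from 50 to 250 kb. From 250 to 500 kb the lower bins were richly covered, with 11115, 8557 and 8145 ends, yet held 11, 8 and 3 di-tags against 38.3, 17.7 and 12.0 expected. The higher side of that band held 11, 11 and 5 against 21.7, 8.19 and 5.64, so in Sample 3 both sides were below expectation. From 500 to 1030 kb the lower side held 22, 3 and 3 di-tags against 21.4, 8.10 and 5.36, and in Sample 3 it showed no deficit. The higher side of this band held 17, 1 and 2 against 8.52, 2.87 and 2.18, which in Sample 3 was above expectation (Poisson interval 9.90 to 27.2). The low total of the higher side in Sample 3 therefore came from within 50 kb and from 100 to 500 kb. Beyond 50 kb the lower share was 45.4% (35.2 to 55.8), 42.2% (27.7 to 57.8) and 30.0% (11.9 to 54.3), against an expected 54.7%, 54.5% and 53.7%. The share lay below its expectation in each library, with the expectation inside the interval in Samples 3 and 4 and just inside it in Sample 5. The 7.31 kb interval had a lower share of 26.4%, 23.4% and 6.90%, and the 2.04 kb interval one of 37.5%, 38.5% and 28.6%, on 7 to 53 di-tags each.

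Pairs of 10 kb regions were also tested by a cumulative binomial test that considers coverage but not distance. Pairs with an end in the window and at least 2 di-tags numbered 29, 18 and 9, of which 9, 11 and 8 were called. That is 31.0%, 61.1% and 88.9% of them. Over the genome the test called 39%, 61.4% and 59.9% of such pairs, and among chromosome 17 pairs within the same reach 43.9%, 62.8% and 62.2%. All calls at the window were in cis, but trans pairs hardly ever held the 2 di-tags needed. The only trans pair that did was with chr14:33800000-33809999 in Sample 3, and it was not called. Of 20 pairs called in any library, 14 were under 100 kb apart, 6 were called in at least 2 libraries and 2 in all 3. Without Sample 3, 5 pairs were called in both other libraries.

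The pairs called in all 3 libraries joined neighbouring regions. The regions from 35640000 and from 35650000, which hold the 2 main intervals, were joined by 4, 5 and 3 di-tags (exact binomial tail, adjusted p = 1.31e-05, 7.09e-11 and 0.000123). The regions from 35650000 and from 35660000 were joined by 5, 13 and 10 (exact binomial tail, adjusted p = 1.38e-07, 1.81e-34 and 3.87e-26). With the binomial expectation scaled by a distance factor fitted over all chromosomes, which is another model than that of the partner bins, 7.09, 5.44 and 3.86 di-tags were expected in the former and 10.7, 15.4 and 9.46 in the latter, and neither was called.

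No partner chromosome was called in trans, on 267, 230 and 231 trans di-tags in Samples 3, 4 and 5. How large an excess these numbers could show was not worked out. Across chromosomes and libraries, 63 two-sided exact binomial tests against the trans partners of the rest of chromosome 17 gave 0 calls, with 2 at an unadjusted p under 0.05 and a smallest adjusted p of 0.398. The 2 were chromosomes 13 and 16 in Sample 4, with 20 and 16 di-tags at 1.90 and 1.89 times the expected number (exact p = 0.00632 and 0.0136). Neither chromosome was high in all libraries. Chromosome 13 had 7 di-tags in Sample 3 and 13 in Sample 5, at 0.550 and 1.22 times the expected number, and chromosome 16 had 13 and 8, at 1.22 and 0.939 times.

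**Figure D4:**
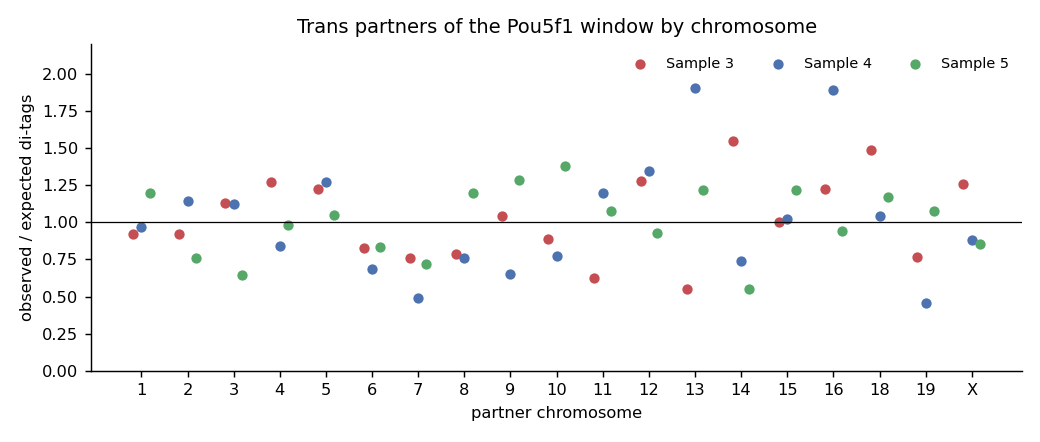
Trans di-tags of the window on each partner chromosome over the number expected from the trans partners of the rest of chromosome 17, in Samples 3, 4 and 5, with a line at 1. The highest points are chromosomes 13 and 16 in Sample 4, at 1.90 and 1.89, and their points in Samples 3 and 5 lie between 0.550 and 1.22.

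In bins of 1 Mb, trans partners fell in 246, 221 and 212 bins, and the fullest held 2, 3 and 3 di-tags. An upper-tail Poisson test was given to the 21, 8 and 18 bins with at least 2 di-tags and called 0. Its p was adjusted over 7588400, 7585350 and 7590324 pairs of a chromosome 17 window and a trans bin. All of the 21, 8 and 18 bins had an unadjusted p under 0.05, which the minimum of 2 di-tags nearly fixes at such low expected numbers. The count needed to pass was not worked out in trans, so 0 calls says nothing of weaker trans contacts. The test called 0.00843%, 0.0248% and 0.0253% of all chromosome 17 windows and trans bins with at least 2 di-tags. Of 615 bins with a partner in some library, 63 recurred in at least 2. In the 54 windows of equal coverage the median was 75 recurring bins (54 to 104), and 42 of them had more. The bin chr1:93000000-93999999 was the only 1 with a di-tag in all 3 libraries, at 1 each against 0.185, 0.148 and 0.142 expected. The windows of equal coverage had a median of 3 such bins. They also had more bins with a partner in some library, with a median of 640 against 615, and 39 of the 54 had more. Recurrence depends on that number, and whether it was low for the trans partners present was not tested.

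Duplicates made up most of the window's di-tags before their removal. With duplicates retained it had 5446, 2122 and 2032 di-tags, which is 8.71, 5.72 and 6.25 times the number left after removal. The libraries as a whole had ratios of 7.24, 5.72 and 5.20. The median over the windows of equal coverage was 6.32, 5.18 and 4.57, with the Pou5f1 window above 37, 32 and 40 of the 54. A distinct di-tag at the window had a median of 5, 3 and 4 copies and up to 81, 45 and 37, while 27.3%, 25.4% and 23.3% were seen once. Mean copies of trans and of cis di-tags were 8.62 and 8.66 in Sample 3, 5.77 and 5.52 in Sample 4, and 6.14 and 6.47 in Sample 5.

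With duplicates retained the binomial test called 375, 219 and 213 pairs at the window instead of 9, 11 and 8. The increase was 41.7-fold, 19.9-fold and 26.6-fold, with a mean of 29.4 ± 11.1 (SD, n = 3) and of 23.3 without Sample 3. Its direction is no result, since retained copies only add to the counts and the test takes each copy as independent. Of these calls 92.5%, 91.8% and 95.8% joined pairs with fewer than 2 di-tags once duplicates were removed. Trans pairs, which without duplicates hardly ever held the 2 di-tags needed for a call, made up 45.9%, 71.2% and 79.3%. The called share of pairs with at least 2 di-tags was 85.8%, 90.1% and 94.7%, against 91.6%, 92.7% and 92.6% over the genome. Most partners were seen a single time in a library, as 95%, 94.4% and 96.9% of 580, 322 and 292 region pairs of the window rested on 1 di-tag after removal. No identical di-tag of the window occurred in more than 1 library.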

How the data were processed

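CHi-C libraries of mouse cells, Samples 3, 4 and 5, were analysed from lists of di-tags that the authors deposited with duplicates retained and with duplicates removed. The deposited lists hold base positions and strands of both reads, so the measure is the number of di-tags and not a level. With HiCUP, the authors cut reads back to the junction, mapped them, removed artefact di-tags and, for the second list, duplicates. The submitters' processing notes name Bowtie 1.1.0 and the mm9 build. The window, the span and the lists named here were chosen with earlier results of these data known.

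Di-tags with at least 1 end in the window were taken from the lists with duplicates removed, which held 8596799 to 9376907 di-tags per library. Positions were taken unchanged, and it was not tested whether those of minus-strand reads give the first or last base. Ends less than 800 bp apart formed a pile, and intervals were bounded by the midpoints of the strand changes. Shares have exact Clopper-Pearson intervals at 95%. Windows of equal coverage did not overlap each other or the span. The tests were those named with each result, with an adjusted p under 0.05 and at least 2 di-tags as the threshold for a call, each library on its own. The negative binomial and binomial procedures were run on data simulated from Sample 3 with contacts added. The added contacts were stronger than most of those seen at the window, so these runs do not bear on weaker ones. Partner bins to be named were those called in all 3 libraries or, failing that, 5 bins more than 100 kb away with the highest smallest count. In trans, of the 3 bins of 1 Mb with the highest smallest count, only that with a di-tag in each library is given. Alternatives changed the coverage tolerance, bin size, threshold, expected count, treatment of duplicates and libraries used. Shares from single intervals and the tests on the main intervals were added after seeing the data. CHiCAGO, which the study used, was not run, since the capture design was not analysed here. No mm9 genome or annotation was used, so no partner bin is assigned to a gene. Python 3.11.15, NumPy 2.4.6, SciPy 1.17.1 and Matplotlib 3.10.9 were used.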

Additional observations from a re-analysis of the deposited data

How the results depend on the processing

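The difference in trans share between the Pou5f1 window and the median window of equal coverage was -1.95 percentage points on average, and -7.07 when coverage had to be within 10%, which left 7 windows, -3.02 within 33% (173 windows) and -3.91 when matched on the mean share of di-tags (267 windows). Leaving out each library in turn gave -4.38 to -1.07, with the windows matched anew on the other libraries, which made them 214, 58 and 92 without Samples 3, 4 and 5 instead of 54. The count of region pairs called in all libraries by the binomial test was 2, but 0 when the expected count was scaled by distance, and 2 to 5 when each library was left out. Leaving out a library could only keep or raise that count, since a pair then had to be called in fewer libraries. Copies per distinct di-tag averaged 6.85, with 5.95 without Sample 3 and 4.62 where both ends of a di-tag were on the plus strand. The lower-side share of near cis partners was 28.0%, and 39.2% for partners over 50 kb away; leaving out each library gave 23.0% to 33.4%. With duplicates retained, the exact tests called 38 chromosomes and libraries and the Poisson test 311 trans bins, instead of 0; these tests treat copies as independent, so their construction differs from that of the report's tests. The mean trans share ran from 52.4% to 66.5% when each library was left out and was 62.2% for the 2.04 kb interval, an alternative chosen after seeing the data. The lower-side share, also by such an alternative, was 34.8% for that interval and 18.9% for the 7.31 kb interval. The test with distance called 0 bins under every alternative tried, which at 325 to 625 di-tags per library says nothing of weaker contacts.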
